A study of Mus musculus with 2 samples.

Results

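The genes described here are 38 genes of fat cells, covering the hormones and enzymes that identify an adipocyte, the proteins that coat its lipid droplet, and the genes with which brown and beige fat make heat. They were chosen by gene symbol, as all probe sets whose platform annotation names one of the 38, and 34 of them were measured, by 73 probe sets, among 18194 genes in all; Cfd, Plin1, Acsl1 and Adrb3 were not analysed here. The list was drawn up with results of this same comparison already known, so its counts describe these genes and are not a test of them. The study set 2 laser-cut structures of mouse skin against each other, the bulge, the stem cell region of the hair follicle, and the hairshaft, with 1 array for each. Both came from C57Bl6 animals 21 days old, with no genetic change or treatment named, and whether the tissue of several animals was pooled is not given in the sources used here.

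White fat cells take up fatty acids and glucose, store them as triglyceride in a single large droplet, and release them through a chain of lipases when fuel is needed. The transcription factor PPAR-gamma, together with members of the C/EBP family, switches this programme on during differentiation. Brown and beige fat cells burn fuel for heat through the uncoupling protein Ucp1. In mouse skin a layer of white adipocytes lies in the lower dermis, around and below the follicles, and expands and shrinks with the hair cycle. Many of the genes are not private to fat: sebocytes also make lipid droplets, muscle fibres also take up fatty acids and insulin-driven glucose, and capillary endothelium also carries fatty acid transporters.

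All values are log2 probe-set values as deposited, and a difference is the bulge value minus the hairshaft value. A gene took the value of its brightest probe set. The background floor was 2.68 on each array, the 95th percentile of the signal from 80 olfactory and vomeronasal receptor probe sets, and where the dimmer array lay at or below it the fold is written as "at least". With 1 array for each structure there is no replicate spread, so no difference could be tested, and the number of arrays limits the precision. Levels are not compared between genes, because each probe set has its own brightness.

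The labels were checked against markers of each structure before the fat cell genes were read. Of 8 bulge markers, 5 were 2-fold or more higher on the bulge array and 3 were under 2-fold apart. Of 8 hair shaft markers, 5 were also 2-fold or more higher on the bulge array, against none on the hairshaft array, where Krt31, Krt33a, Krt35, Krt86 and Krtap8-1 were at or below the floor, so the hairshaft array goes against its label for these genes. All 8 keratinocyte markers were under 2-fold apart, with a summed linear signal of 149582 on the bulge array against 150302 on the hairshaft array. Since neither array can be left out of a comparison of 2, every difference given here rests on both.

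Most of the fat cell genes were 2-fold or more higher on the bulge array, some by little over that limit. Of the 33 above the floor on at least 1 array, 24 were 2-fold or more higher in the bulge, 2 (Dio2 and Zic1) 2-fold or more higher in the hairshaft and 7 under 2-fold apart. Among all 13329 genes above the floor, 11.4% were 2-fold or more higher in the bulge and 4.91% in the hairshaft. At 8-fold the count of fat cell genes was 15 toward the bulge, against 0 toward the hairshaft. Among all genes above the floor, 3.02% were 8-fold or more higher in the bulge, and only 25 of the 13329 in the hairshaft. The median difference was 2.23 over the 33 genes and 0.00 over all genes above the floor. Over all 34 measured, without a floor, it was 2.35. Because the list was chosen with this contrast known, nothing is read from the gap between these shares. In tissue cut from a section, fewer fat cells and less RNA per cell cannot be told apart.

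**Figure D1:**
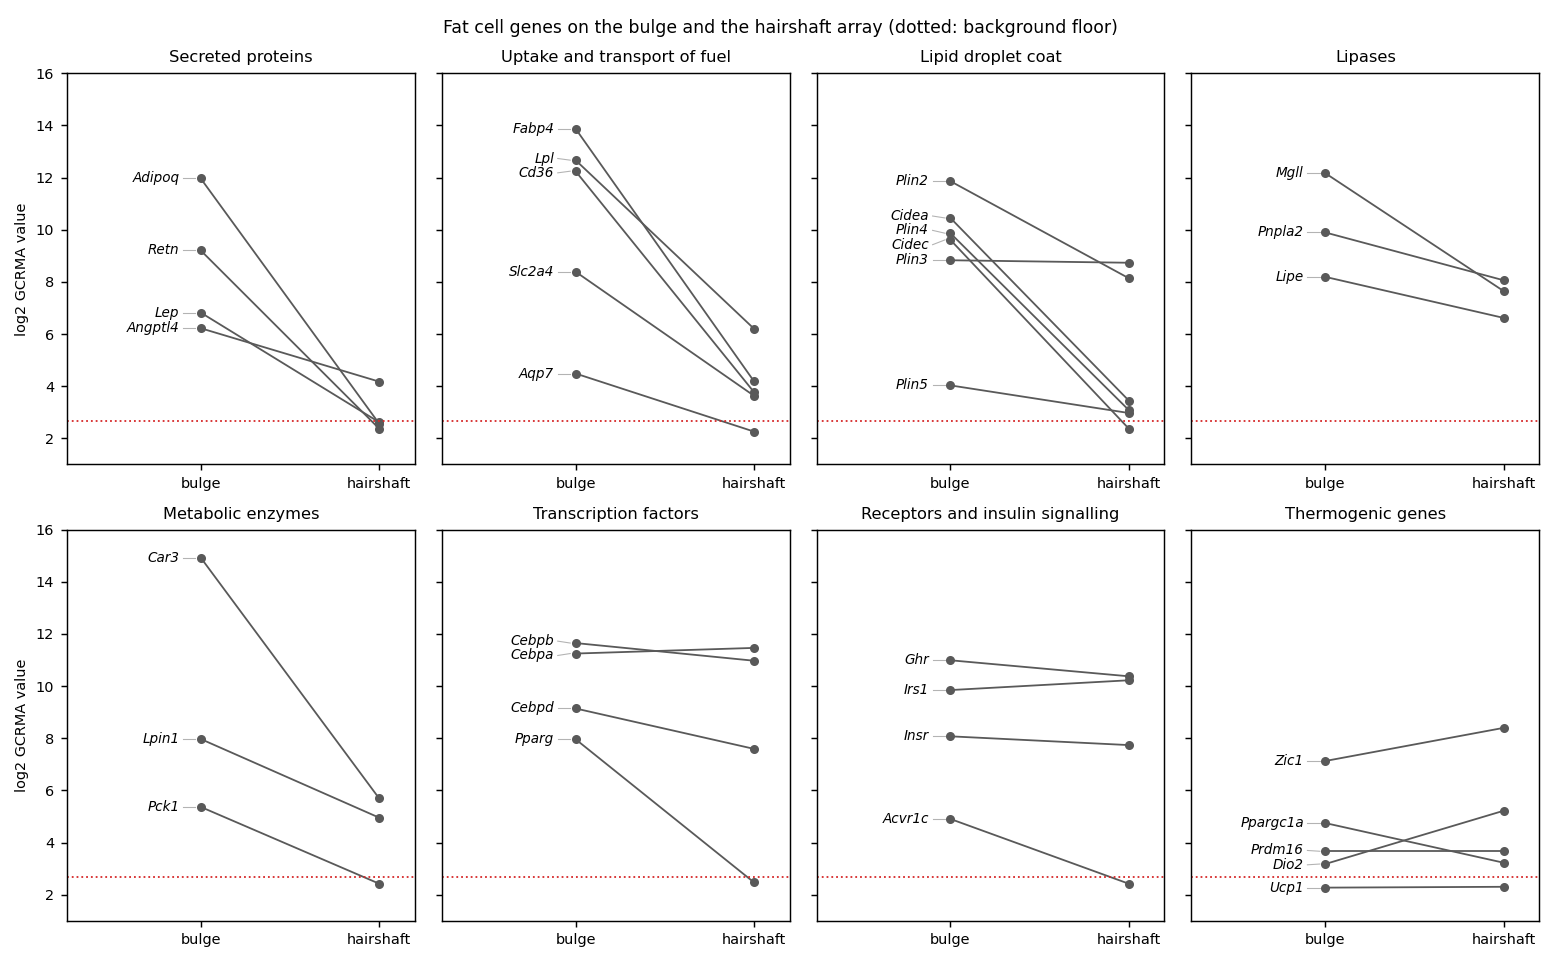
Log2 values of the 34 measured genes on the bulge array (left in each panel) and on that of the hairshaft (right), by role, with a line joining the points of each gene. The dotted line is the background floor of 2.68. Secreted proteins, uptake genes and most droplet genes drop steeply toward the hairshaft, while Cebpa, Cebpb, Irs1, Insr, Ghr and Plin3 run nearly level and Dio2 and Zic1 slope the other way.

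The genes divided into those read on both arrays and those read on the bulge array alone. The adipocyte hormones Adipoq, Retn and Lep, the droplet protein Cidec and the regulator Pparg were above the floor on the bulge array only, as were Pck1, Acvr1c and Aqp7, which makes 8 genes in all. No gene was above the floor on the hairshaft array alone, and 25 were above it on both. This split depends on the floor. At the 99th percentile floor of 4.21, Dio2 (3.18 on the bulge array, 5.22 on the hairshaft array) was above it on the hairshaft array alone. Fabp4, Cd36, Angptl4, Slc2a4, Cidea, Plin4 and Ppargc1a were then also above it on the bulge array alone. The genes under 2-fold apart were Cebpb, Ghr, Insr, Plin3, Prdm16, Cebpa and Irs1. On the bulge array the 34 values ran from 2.27 to 14.92 with a median of 8.98, and on the hairshaft array from 2.26 to 11.46 with a median of 4.18.

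Promoters are shown for 4 genes, 3 that were high on the bulge array alone (Lep, Cidec and Pparg) and 1 that was higher on the hairshaft array (Dio2). They are the 4 among the measured genes whose window held the C/EBP spelling searched for. RefSeq windows of build GRCm38.p6 were found for 26 of the 34 measured genes, 35 windows in all since some genes have several starts, and the 250 bases before each start were searched on both strands. The search used TTGCNNAA for C/EBP, TATAAA for the TATA box, and the direct repeat of 2 half-sites, spaced by 1 base, that PPAR-gamma binds with its partner RXR. The C/EBP and TATA matches are in capitals below, written 5′ to 3′ along the gene's strand.
Lep chr6:29059971-29060220 (+ strand): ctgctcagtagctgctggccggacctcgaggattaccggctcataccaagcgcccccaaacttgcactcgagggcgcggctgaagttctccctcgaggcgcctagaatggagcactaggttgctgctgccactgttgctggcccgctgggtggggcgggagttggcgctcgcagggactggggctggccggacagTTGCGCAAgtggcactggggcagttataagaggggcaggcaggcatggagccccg
Pparg chr6:115421816-115422065 (+ strand): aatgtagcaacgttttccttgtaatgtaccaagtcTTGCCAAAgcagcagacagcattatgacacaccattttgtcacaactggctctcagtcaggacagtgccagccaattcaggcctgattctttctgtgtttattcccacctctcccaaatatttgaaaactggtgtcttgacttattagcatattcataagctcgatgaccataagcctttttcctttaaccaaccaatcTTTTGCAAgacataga
Cidec chr6:113434765-113435014 (- strand): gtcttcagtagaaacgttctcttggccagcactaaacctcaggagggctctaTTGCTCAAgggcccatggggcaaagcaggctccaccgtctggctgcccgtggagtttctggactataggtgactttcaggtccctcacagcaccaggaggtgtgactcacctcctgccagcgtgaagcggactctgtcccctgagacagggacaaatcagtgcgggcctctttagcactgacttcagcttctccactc
Dio2 chr12:90739039-90739288 (- strand): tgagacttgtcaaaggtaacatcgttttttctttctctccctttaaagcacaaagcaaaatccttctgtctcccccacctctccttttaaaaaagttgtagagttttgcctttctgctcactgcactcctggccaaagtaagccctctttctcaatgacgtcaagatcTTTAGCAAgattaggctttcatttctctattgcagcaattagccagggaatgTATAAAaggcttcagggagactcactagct

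The C/EBP spelling stood 55 to 48 bases before the start of Lep, as TTGCGCAA, which reads the same on both strands. In Pparg it occurred in only 1 of 3 windows, at 215 to 208 and again, on the other strand, at 16 to 9 bases before that start. Cidec held it 198 to 191 bases before the start of the window shown, and its other window had no match. Dio2 held it 82 to 75 bases before the start and also had a TATA box at 30 to 25 bases. The C/EBP spelling was thus in 4 of the 35 windows, beside 9.56% of all 32851 windows of this length. TATAAA was also in 4 of the 35, beside 12.4% of all, in Dio2, in another window of Pparg, in Cebpa and in Ghr. The PPAR-RXR repeat was in 0 of the 35 and in 0.338% of all. These are matches of letters and do not show binding, and a window without a match says only that these letters are not in it. Both a gene higher in the hairshaft and genes higher in the bulge carried the C/EBP letters.

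Among secreted proteins, all 4 measured genes were higher in the bulge. Adiponectin (Adipoq), the insulin-sensitising hormone made almost only by fat cells, read 11.96 on the bulge array against 2.57 on the hairshaft array, not above the floor, a difference of at least 625-fold. Resistin (Retn), a fat cell hormone of rodents, read 9.21 on the bulge array against 2.38 on the hairshaft array, at least 92.4-fold. Leptin (Lep), which reports fat stores to the brain and has the C/EBP letters shown above, read 6.82 on the bulge array against 2.62 on the hairshaft array, at least 17.7-fold. All 3 hormones were therefore read on the bulge array and not on the other. Angptl4, an inhibitor of lipoprotein lipase that many tissues induce on fasting, was the exception in the group. It was above the floor on both arrays, at 6.22 on the bulge array against 4.18 on the hairshaft array, 4.13-fold.

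Among genes for the uptake and transport of fuel, all 5 measured were 2-fold or more higher in the bulge. Fabp4, the carrier that shuttles fatty acids inside fat cells and also marks capillary endothelium, read 13.87 on the bulge array against 4.19 on the hairshaft array, an 821-fold difference. Cd36, which moves fatty acids across the membrane in fat, muscle and endothelium, read 12.24 on the bulge array against 3.78 on the hairshaft array, 354-fold. By brightest probe set the Fabp4 difference was the largest of the list, but with the mean of probe sets its log2 difference was 5.92, below the 9.29 of Adipoq and the 8.16 of Car3, and with plain probe sets it was 4.90. Lipoprotein lipase (Lpl), which frees fatty acids from circulating lipoproteins, read 12.67 on the bulge array against 6.21 on the hairshaft array, 88.0-fold. Unlike Adipoq and Lep, these 3 genes were above the floor on the hairshaft array by their brightest probe sets. Of these, Lpl alone was also above the 99th percentile floor of 4.21 there. The other Lpl probe set was below that floor on the hairshaft array, at 11.03 on the bulge array against 3.12, 240-fold. Other probe sets of Cd36 (2.50 and 2.42) and of Fabp4 (2.53 each) were not above the floor on the hairshaft array, while a further one of Fabp4 read 3.50. Slc2a4, the insulin-driven glucose transporter GLUT4 of fat and muscle, read 8.39 on the bulge array against 3.64 on the hairshaft array, 27.0-fold. Aqp7, the channel through which fat cells release glycerol, read only 4.49 on the bulge array against 2.26 on the hairshaft array. Its call of at least 3.51-fold came from 1 probe set of a kind that can bind other transcripts. The other Aqp7 probe set read 3.12 on the bulge array against 3.11 on the hairshaft array, and with the 99th percentile floor the difference was 0.28 in place of 1.81 (log2).

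Of the 6 lipid droplet coat genes measured, 5 were 2-fold or more higher in the bulge and 1 was under 2-fold apart. Cidec, which fuses droplets into the single large one of white fat, read 9.61 on the bulge array against 2.37 on the hairshaft array, at least 122-fold. Its relative Cidea, a droplet protein of brown fat and also of sebocytes, read 10.45 on the bulge array against 3.45 on the hairshaft array, 128-fold. Plin4, a perilipin of nascent droplets in fat and muscle, read 9.87 on the bulge array against 3.09 on the hairshaft array, 110-fold. These 3 droplet genes were near or below the floor on the hairshaft array. Plin2, the perilipin found on droplets of nearly every cell including sebocytes, was clearly present on both arrays, at 11.86 on the bulge array against 8.14 on the hairshaft array, 13.2-fold. Plin5, the perilipin of muscle, heart and brown fat, was dim on both, at 4.03 on the bulge array against 2.97 on the hairshaft array. Its 2.08-fold difference sat just inside the limit and was lost with the array median as floor (log2 0.56), after averaging its probe sets (0.64) and after adding 16 on the linear scale (0.44). Plin3, a perilipin of all cell types, read 8.83 on the bulge array against 8.73 on the hairshaft array, 1.07-fold. The order of the perilipin differences was thus Plin4, Plin2, Plin5 and Plin3. Plin2, of nearly every cell, came before Plin5, of muscle, heart and brown fat.

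The 3 lipases that empty the droplet in sequence were all 2-fold or more higher in the bulge. Pnpla2, or ATGL, which takes the first fatty acid off a triglyceride, read 9.90 on the bulge array against 8.06 on the hairshaft array, 3.56-fold. Lipe, the hormone-sensitive lipase that takes the second, read 8.19 on the bulge array against 6.62 on the hairshaft array, 2.98-fold. Mgll, which takes off the last and also degrades an endocannabinoid in brain, read 12.17 on the bulge array against 7.65 on the hairshaft array, 22.9-fold. All 3 lipases were read well above the floor on both arrays. The Mgll fold was shared by 2 more of its probe sets, at 17.1-fold and 11.9-fold, and its remaining one was near the floor, at 2.72 on the bulge array against 2.78 on the hairshaft array. With the mean of each gene's probe sets, Pnpla2 (log2 0.92) and Lipe (0.79) were under 2-fold apart, since each has a second probe set that was not above the floor on either array.

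Among other enzymes, Car3, the carbonic anhydrase abundant in fat and in slow muscle, read 14.92 on the bulge array against 5.69 on the hairshaft array, 600-fold. Lpin1, the phosphatase of the step before triglyceride is made, also active in muscle, read 7.97 on the bulge array against 4.95 on the hairshaft array, 8.08-fold, and its other probe set showed 36.7-fold. Pck1, which provides glycerol for storage in fat and makes glucose in liver, read 5.36 on the bulge array against 2.42 on the hairshaft array, at least 6.45-fold. All 3 enzymes were higher in the bulge.

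The transcription factors did not move as a group. Pparg, the master regulator of fat cells and a regulator of sebocytes, read 7.96 on the bulge array against 2.47 on the hairshaft array, at least 39.0-fold. Cebpd, an early and widely induced C/EBP factor, read 9.14 on the bulge array against 7.59 on the hairshaft array, 2.93-fold, or a log2 difference of 0.77 with the mean of its probe sets. The other 2 C/EBP genes were bright on both arrays and under 2-fold apart. Cebpb read 11.65 on the bulge array against 10.97 on the hairshaft array, 1.60-fold, and was the gene just outside the limit. Cebpa, which sustains Pparg in fat cells and also acts in keratinocytes, read 11.25 on the bulge array against 11.46 on the hairshaft array, 1.16-fold higher in the hairshaft. Thus Pparg was not above the floor on the hairshaft array while all 3 C/EBP genes were.

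Receptors and insulin signalling genes were under 2-fold apart in 3 of 4 cases. The growth hormone receptor Ghr read 10.99 on the bulge array against 10.37 on the hairshaft array, 1.53-fold, although 1 of its 3 probe sets reached 2.86-fold. The insulin receptor Insr read 8.07 on the bulge array against 7.74 on the hairshaft array, 1.26-fold. Irs1, the adaptor downstream of that receptor, read 9.85 on the bulge array against 10.22 on the hairshaft array, 1.30-fold higher in the hairshaft. None of these 3 reached 2-fold. Acvr1c, the receptor ALK7 that restrains lipolysis in fat cells, read 4.90 on the bulge array against 2.42 on the hairshaft array, at least 4.68-fold, but the log2 difference was 0.69 with the 99th percentile floor and 0.68 with the mean of its probe sets, in place of 2.23.

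The thermogenic genes had no common direction. Ucp1, the uncoupling protein that defines active brown and beige fat, read 2.27 on the bulge array against 2.30 on the hairshaft array, not above the floor on either array. Dio2, which activates thyroid hormone in brown fat and other tissues, read 3.18 on the bulge array against 5.22 on the hairshaft array, 4.12-fold higher in the hairshaft. Zic1, a developmental factor of classical brown fat and of the nervous system, read 7.13 on the bulge array against 8.40 on the hairshaft array, 2.41-fold higher in the hairshaft. The second probe sets of Dio2 and Zic1 had the same direction at 1.09-fold and 1.43-fold. Averaging the probe sets left both under 2-fold, at -0.72 for Dio2 and -0.89 for Zic1 (log2). Ppargc1a, a coactivator of mitochondrial genes in brown fat and muscle, read 4.75 on the bulge array against 3.23 on the hairshaft array, 2.87-fold. That call was lost under 4 alternatives, with log2 differences from 0.53 to 0.81 in place of 1.52. Prdm16, a switch toward brown fat, had 3.66 on both arrays by its brightest probe set, equal to the last deposited digit. Such equal values were common, at 17300 of 45101 probe sets within 1e-06 (log2), and 3270 of these were above the floor, so this Prdm16 value need not be signal. Another Prdm16 probe set read 2.23 on the bulge array against 3.03 on the hairshaft array, at least 1.27-fold higher in the hairshaft.

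**Figure D2:**
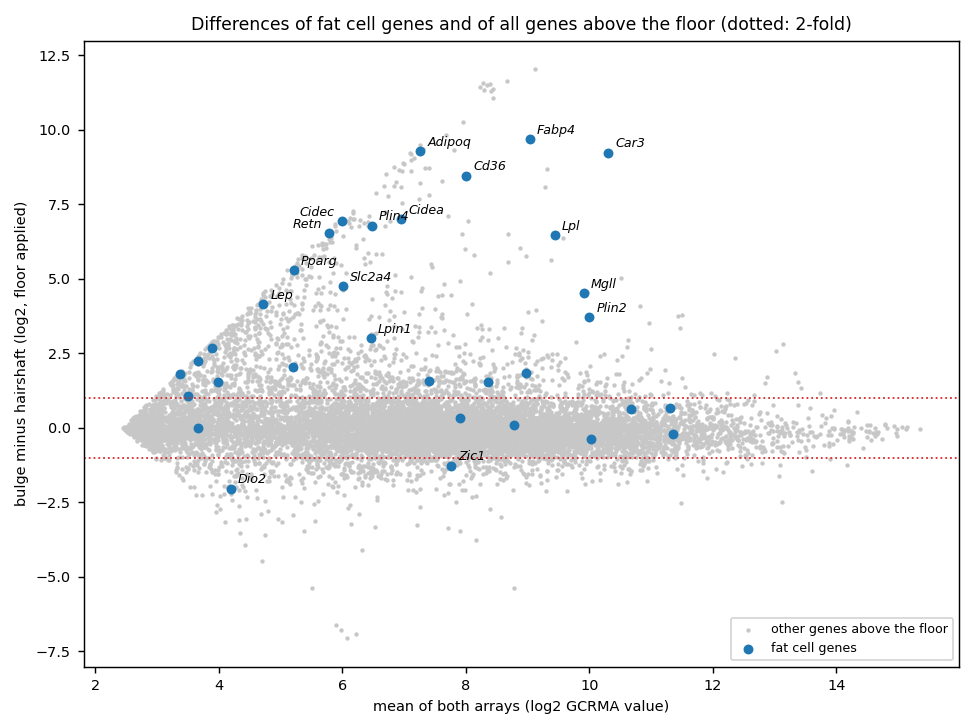
Difference between the arrays (bulge minus hairshaft, log2, vertical) against the mean of both arrays (log2, horizontal) for 13329 genes above the floor, with the 33 fat cell genes in blue. The dotted lines mark 2-fold, and genes on the upper left edge of the cloud are not above the floor on the hairshaft array. Fabp4, Adipoq and Car3 lie among the highest points, below a cluster of skeletal muscle genes, and Dio2 and Zic1 lie below the lower line.

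Probe sets of the same gene gave the only repeat measurement. Of the 73 probe sets, 58 were above the floor on at least 1 array. Of these, 38 were 2-fold or more higher in the bulge, 2 toward the hairshaft and 18 under 2-fold apart, beside 9.87% of all probe sets above the floor 2-fold or more higher in the bulge. Probe sets of 1 gene share its transcripts and are not replicates. In 6 of the 16 genes with several probe sets above the floor, namely Car3, Cd36, Lpl, Slc2a4, Lpin1 and Pck1, each such probe set was 2-fold or more higher in the bulge. All 4 probe sets of Car3 were so, from at least 65.9-fold to 1296-fold, and all 3 of Cd36, from at least 32.7-fold to 354-fold. Fabp4 was not among the 6: 3 of its probe sets lay between at least 29.9-fold and 821-fold and the dimmest read 2.80 on the bulge array against 2.53 on the hairshaft array. Even where the direction was shared, the fold thus differed widely between probe sets of 1 gene.

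**Figure D3:**
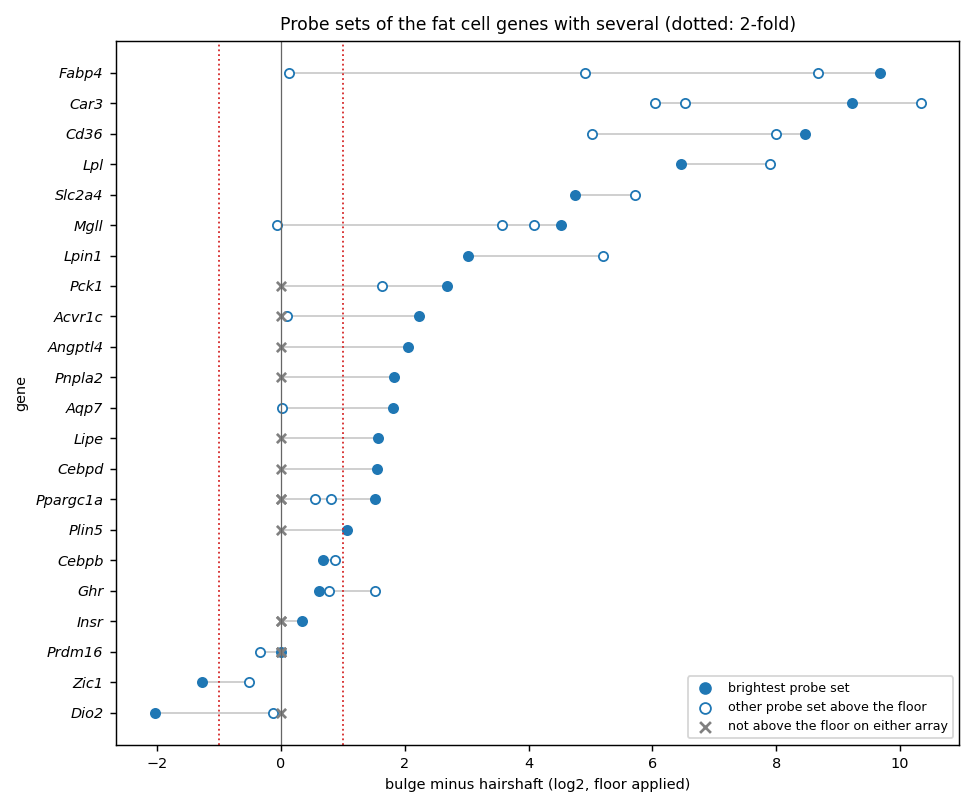
Differences (bulge minus hairshaft, log2, horizontal) of each probe set of the 22 genes with several, with the brightest filled, others above the floor open, and those not above the floor on either array as crosses. All points of Car3, Cd36, Lpl, Slc2a4 and Lpin1 lie right of the 2-fold line, while Mgll, Fabp4, Aqp7 and Acvr1c have a point near 0.

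Other genes of the fat pathways were taken from 8 lists, also drawn up with results known, and fatty acid synthesis had the highest median of the 8. Of 21 further markers of mature adipocytes, 12 were 2-fold or more higher in the bulge, against 0 in the hairshaft, and the median difference was 1.46. Cyp2e1, a cytochrome abundant in fat and liver, was 302-fold higher, at 11.00 on the bulge array against 2.76 on the hairshaft array. Haptoglobin (Hp), an acute-phase protein that fat also secretes, was at least 118-fold, the retinol carrier Rbp4 at least 41.9-fold and adipogenin (Adig) 33.4-fold higher. Among regulators of fat cell differentiation the count was 5 of 15, all in the bulge, with a median of 0.63. Klf15, which acts in fat and in muscle, was 16.9-fold and Ebf1 11.3-fold higher in the bulge, and Stat5a, Stat5b and Zfp423 between 2.07-fold (a bound) and 2.25-fold. Of 12 progenitor genes, 2 (16.7%) were 2-fold or more higher in the bulge, near the 11.4% of all genes. The 2 were Pi16 (9.28-fold) and Cd34, also a marker of bulge stem cells (3.46-fold). F3 was 3.53-fold higher in the hairshaft, 9 genes were under 2-fold apart and the median was 0.06. Pdgfrb, a receptor of progenitors and pericytes, read 9.47 on the bulge array against 8.71 on the hairshaft array.

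Lipid synthesis genes were 2-fold or more higher in the bulge or under 2-fold apart. None was 2-fold or more higher in the hairshaft, beside only 4.91% of all genes above the floor, so little is read from that. Of 15 fatty acid synthesis genes, 9 were 2-fold or more higher in the bulge and 6 under 2-fold apart, and the median was 2.48. Acacb, the mitochondrial acetyl-CoA carboxylase of muscle and other oxidative tissues, was 51.7-fold, the lipogenic factor Thrsp 41.8-fold, the carbohydrate-sensing factor Mlxipl at least 14.4-fold and the elongase Elovl5 11.5-fold higher in the bulge. Of 14 genes of triglyceride synthesis and droplet formation, 7 were 2-fold or more higher in the bulge and 7 under 2-fold apart, and the median was 0.77. Gpd1, which makes the glycerol backbone, was 65.2-fold, Fitm1, a droplet-forming protein of muscle, 23.0-fold, Agpat2 5.39-fold and Dgat1 4.54-fold higher. Dgat2, the other enzyme of the last step, read 11.17 on the bulge array against 11.26 on the hairshaft array.

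Control of lipolysis showed 6 of 11 genes 2-fold or more higher in the bulge and 1, the niacin receptor Hcar2 (2.12-fold), in the hairshaft, with a median of 1.45, or 0.74 with no floor and 2.15 with plain probe sets. Gpihbp1, which holds lipoprotein lipase on capillary endothelium, was 20.1-fold higher in the bulge beside the 88.0-fold of Lpl itself. G0s2, an inhibitor of Pnpla2, was 12.1-fold, the phosphodiesterase Pde3b 5.97-fold and the natriuretic peptide receptor Npr3 4.42-fold higher. Of 19 genes of insulin, leptin and adiponectin signalling, 4 (21.1%) were 2-fold or more higher in the bulge, beside 11.4% of all genes. In the hairshaft 1 was, beside 4.91% of all genes. The other 14 were under 2-fold apart, and the median was 0.01. The 4 were Grb14 (at least 26.1-fold), the leptin receptor Lepr (14.0-fold), Pik3r1 (3.04-fold) and Grb10 (2.74-fold), and the 1 was Irs2 (2.83-fold), which was dim, at 2.72 on the bulge array against 4.21 on the hairshaft array. The adiponectin receptor Adipor1 read 11.13 on the bulge array against 11.02 on the hairshaft array. Adipor2 read 10.10 on the bulge array against 11.04 on the hairshaft array, 1.91-fold higher in the hairshaft. Neither receptor reached 2-fold, unlike their ligand.

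Among further brown and beige fat genes, the 4 with the largest differences are also known from muscle or sebaceous gland. Of 18, 6 were 2-fold or more higher in the bulge, 1 (Tmem26, 2.77-fold) in the hairshaft and 11 under 2-fold apart. The median was 0.18, or 1.16 with the 99th percentile floor. The respiratory chain subunits Cox8b and Cox7a1, forms of muscle, heart and brown fat, exceeded their hairshaft values by 274-fold and 128-fold in the bulge. The elongase Elovl3, of brown fat and sebocytes, was 186-fold and the fuel-switch kinase Pdk4, strong in muscle, 120-fold higher. Also higher in the bulge were Tbx1, at 6.25 on the bulge array against 2.93 on the hairshaft array, 9.99-fold, and Slc27a1, 3.44-fold. Another 6 of this list, Otop1, Lhx8, Cited1, Hoxc9, Fgf21 and Bmp8b, were like Ucp1 not above the floor on either array.

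Markers of other cell types that make these genes were higher on the bulge array too. All 15 skeletal muscle markers were 2-fold or more higher there, with a summed linear signal of 220973 on the bulge array against 127 on the hairshaft array, where Actn3, Atp2a1, Myh1, Tnnc2 and Ttn were at or below the floor. Of 7 sebaceous gland markers above the floor, 6 were 2-fold or more higher in the bulge, with sums of 32975 in the bulge against 3865 in the hairshaft, and Mc5r was not above the floor on either array. Of 12 endothelial markers, 10 were 2-fold or more higher in the bulge, with sums of 1979 in the bulge against 281 in the hairshaft, where Cdh5, Kdr and Pecam1 were at or below the floor. The 10 macrophage markers were all under 2-fold apart (4278 in the bulge against 4574 in the hairshaft). Dermal fibroblast markers were higher in the bulge for 1 of 8 and in the hairshaft for 3 (34176 in the bulge against 82588 in the hairshaft). The part of muscle, sebaceous gland and endothelium in the values of Car3, Slc2a4, Plin4, Lpin1, Cidea, Cd36, Fabp4 and Pparg was not tested. Adipoq, Retn and Lep were above the floor on the bulge array alone, as were Cidec, Pparg, Pck1, Acvr1c and Aqp7. The muscle and endothelial markers named above as at or below the floor on the hairshaft array were so too. Which cells gave these signals was not tested.

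**Figure D4:**
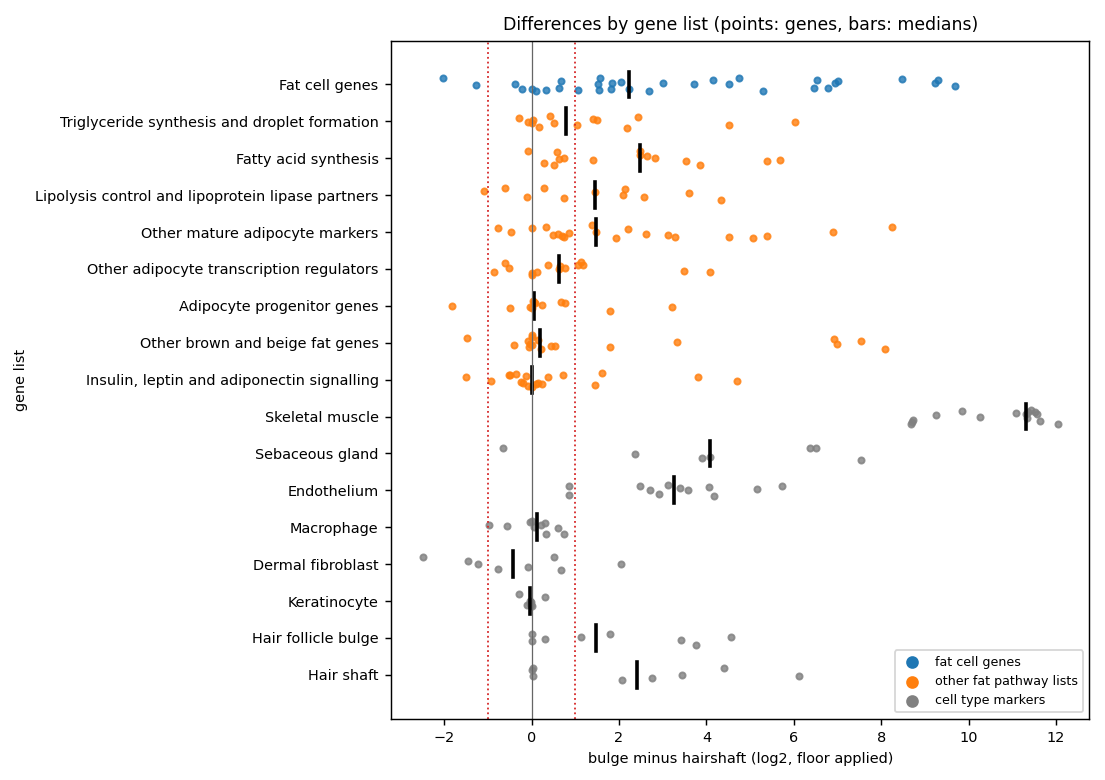
Differences (bulge minus hairshaft, log2, horizontal) of genes above the floor in the fat cell gene list (blue), 8 other fat pathway lists (orange) and 8 lists of cell type markers (grey), with a bar at each median. Skeletal muscle markers lie farthest right at a median of 11.31, fat cell genes spread from -2.04 to 9.68, and keratinocyte and macrophage markers lie near 0.

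Processing decided the call for some genes. Of the 26 genes at least 2-fold apart in either direction, 16 stayed past 2-fold in the same direction under each of 10 alternatives that gave a value, among them Adipoq, Retn, Lep, Fabp4, Cd36, Lpl, Slc2a4, Cidea, Cidec, Plin2, Plin4, Car3 and Pparg. The other 10 were Mgll, Acvr1c, Pnpla2, Aqp7, Lipe, Cebpd, Ppargc1a, Plin5, Zic1 and Dio2. Lep stayed at a log2 difference of 2.53 or more and Pparg at 3.57 or more.

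**Figure D5:**
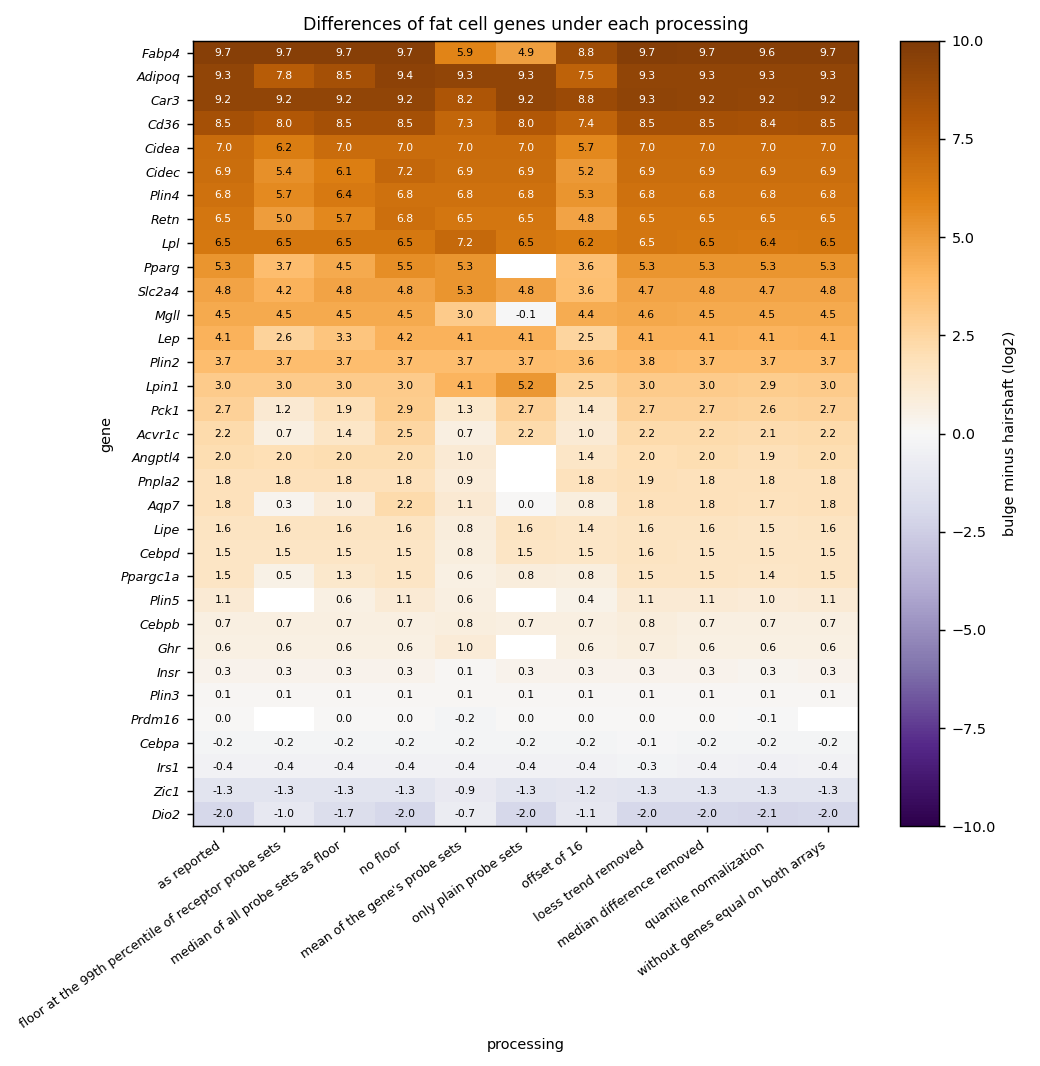
Differences of the 33 fat cell genes (bulge minus hairshaft, log2, colour and number) as reported and under each of 10 alternatives, with blank cells where a gene had no value. Rows from Fabp4 to Plin2 stay orange apart from Mgll with plain probe sets only (-0.06), where Pparg has no value. Some of these cells are pale, as for Lep with the offset (2.53).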

How the data were processed

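Gene expression was measured on 2 arrays of 45101 probe sets, 1 for the bulge and 1 for the hairshaft, from 30 ng of amplified total RNA, per the labels' protocols. The deposited log2 values were made by the authors with GCRMA, per the submitters' processing notes; its settings and version are not stated, and the range of the values (2.23 to 15.36) sets the scale as log2. No column was left out (0 unmatched).

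The platform annotation gave 34958 probe sets 1 symbol and 932 several, and 9211 were unnamed here; 34754 symbols were updated through the Entrez identifier (RefSeq, GRCm38.p6). Each gene took its probe set with the highest mean. Differences used the receptor-based floor and fixed limits of 2-fold and 8-fold. No test was run, because 1 array for each structure leaves 0 residual degrees of freedom. Counting was tried on simulated data with large shifts in genes well above the floor, which says nothing about calls near the floor or the limit. Members and lists were chosen with earlier results of these data known. All members are named, with up to 4 genes of each pathway list by size of difference and each gene of a count of 5 or fewer. Dgat2, Adipor1, Adipor2, Tbx1, Slc27a1 and the 6 brown and beige genes not above the floor were chosen after their values were seen. There were 10 alternatives, 1 of them added after seeing the data. Promoters were RefSeq windows. The work used matplotlib 3.10.9, statsmodels 0.14.6, numpy 2.4.6 and pandas 2.3.3 under Python 3.11.15.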

Additional observations from a re-analysis of the deposited data

How the results depend on the processing

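No paired analysis was possible because each structure has 1 array, and for the same reason no replicate could be left out. The floor was moved to the 99th percentile of the receptors or to the array's median, or dropped; genes were averaged over their probe sets or kept plain ones alone (no _a_at, _s_at or _x_at); 16 was added on the linear scale; a loess trend (span 0.3) or the median difference was taken out; the arrays were quantile normalized; and, added after seeing the data, genes equal on both arrays were left out. The count of fat cell genes 2-fold or more higher in the bulge was 24 as reported and ran from 17 of 28 with plain probe sets to 24. With the mean of probe sets 18 of 33 were higher in the bulge, the count higher in the hairshaft was 0 in place of 2, and the median difference was 1.12 in place of 2.23; with the offset the median was 1.47. With plain probe sets Mgll had -0.057 in place of 4.52, since its 3 bright probe sets are left out, and 3 regulators and 1 progenitor gene were 2-fold or more higher in the bulge, in place of 5 and 2. Of 322 values of single fat cell genes, 56 moved by over 1.5-fold, 53 of them to a smaller difference. These counts leave out Mgll with plain probe sets, which changed sign. Without genes equal on both arrays, 12.5% of 12178 genes were 2-fold or more higher in the bulge. Of 35 pathway genes past 2-fold named by size or count, 31 stayed so. Tbx1 and Slc27a1 are not among the 35. Irs2 had -0.00 with the 99th percentile floor and Zfp423 0.25 with the median as floor. With the mean of probe sets Grb10 had 0.49 and Stat5b 0.96 (log2). Dim genes are limited by signal over background.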
